A study of Mus musculus with 18 samples.

Results

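ATRX belongs to the SNF2 family of chromatin remodelers, and 10 genes that encode related SNF2 ATPases were followed in mesenchymal progenitor cells (MPCs) that had lost *Atrx*. The genes were *Rad54l2*, *Rad54l*, *Rad54b*, *Hells*, *Smarca2*, *Smarca4*, *Smarca5*, *Chd1*, *Chd4* and *Ercc6*. They were chosen by name for their kinship to ATRX, and their rows were found by Entrez identifier among the 24100 genes listed in both count tables. The cells were C3H/10T1/2, a mouse mesenchymal progenitor line, grown without differentiation cues. WT cells had received the Cas9 vector without a guide, and the KO lines sg5 (clone G7) and sg6 (clone B10) had each received Cas9 with 1 of the *Atrx* sgRNAs. Each guide was represented by 1 clone. Polyadenylated RNA and rRNA-depleted RNA were each sequenced in 3 libraries of each line, 18 libraries in all. As no label tied the 3 libraries of a line to separate clones, n = 3 counts libraries of 1 line, p-values measure the spread between these libraries, and an effect of the clone cannot be told apart from an effect of *Atrx* loss. Both clones were compared with the same WT libraries. The question was whether relatives of ATRX rose when *Atrx* fell.

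SNF2 ATPases use ATP hydrolysis to move along DNA, and most of them slide, evict or exchange nucleosomes. ATRX pairs with DAXX to place histone H3.3 at repeats and telomeres. RAD54L2 (ARIP4), its closest relative, binds the androgen receptor and takes part in the removal of trapped topoisomerase 2, and RAD54L and RAD54B act in strand invasion during homologous recombination. HELLS (LSH) opens nucleosomal DNA for maintenance methylation at repeats and is abundant in dividing cells. SMARCA2 (BRM) and SMARCA4 (BRG1) are the alternative motors of the SWI/SNF complexes, SMARCA5 (SNF2H) is the motor of the ISWI complexes that space nucleosomes, CHD1 acts behind elongating RNA polymerase II, CHD4 is the motor of the NuRD deacetylase complex, and ERCC6 (CSB) starts transcription-coupled repair at stalled polymerase.

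The promoters of 6 of these genes are shown because the results below turn on their transcript levels. *Smarca2* and *Ercc6* were higher than WT in both clones, *Smarca4* and *Smarca5* passed the test in 1 clone, and *Hells* and *Rad54l* followed the S phase genes from library to library. The sequences are from RefSeq on GRCm38.p6, which had a promoter entry for 7 of the 10 genes, and no entry was held for *Rad54l2*, *Rad54b* and *Chd1*. Each window spans 120 bases and ends 25 bases inside the outermost annotated transcript. Capitals mark the motif letters found by a search of both strands. The *Smarca2* window is chr19:26604955-26605074 (plus strand), the *Ercc6* window chr14:32513426-32513545 (plus), the *Smarca4* window chr9:21616074-21616193 (plus), the *Smarca5* window chr8:80739473-80739592 (minus), the *Hells* window chr19:38930820-38930939 (plus) and the *Rad54l* window chr4:116123666-116123785 (minus).
Smarca2: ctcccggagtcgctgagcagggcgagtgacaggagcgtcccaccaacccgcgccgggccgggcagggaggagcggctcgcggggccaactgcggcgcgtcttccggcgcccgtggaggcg
Ercc6: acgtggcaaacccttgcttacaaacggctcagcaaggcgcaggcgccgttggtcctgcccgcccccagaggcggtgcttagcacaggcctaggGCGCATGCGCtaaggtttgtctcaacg
Smarca4: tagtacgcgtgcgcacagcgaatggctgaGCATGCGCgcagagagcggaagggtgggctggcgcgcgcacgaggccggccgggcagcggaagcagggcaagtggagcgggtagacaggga
Smarca5: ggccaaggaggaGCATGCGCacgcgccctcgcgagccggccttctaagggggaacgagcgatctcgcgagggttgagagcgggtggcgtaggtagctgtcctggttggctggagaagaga
Hells: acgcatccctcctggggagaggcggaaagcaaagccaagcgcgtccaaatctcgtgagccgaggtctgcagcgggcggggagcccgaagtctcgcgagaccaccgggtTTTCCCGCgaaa
Rad54l: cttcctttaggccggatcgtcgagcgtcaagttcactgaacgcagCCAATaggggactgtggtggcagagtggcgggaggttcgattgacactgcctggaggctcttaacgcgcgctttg

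Over the full promoter entries, which run from 250 bases before to 50 bases after a start site, the NRF1 letters GCGCATGC occurred in 3 of the 7 genes with an entry (*Ercc6*, *Smarca4* and *Smarca5*) and in 2.71% of 32851 entries of 27025 genes. In *Ercc6* the match lies on both strands, and these matches overlap. The E2F letters TTTCCCGC or TTTGGCGC occurred in *Hells* alone of the 7 and in 1.56% of all entries. The letters CCAAT occurred in *Rad54l* and *Chd4* and in 37.4% of all entries. No searched letters were found in the *Smarca2* entry. These matches describe the sequence and were not tested as binding sites.

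Library totals ran from 27544833 to 80772108 counts in WT, from 161036799 to 235346363 in sg5 and from 58918732 to 71896907 in sg6 for polyA RNA, and from 20135336 to 33187136 for rRNA-depleted RNA, where TE (transposable element) loci were counted with genes. Every 1 of the 10 genes passed the filter on low counts in both kinds of library, with 373 to 111918 counts a library in polyA and 185 to 8502 in rRNA-depleted RNA. Levels below are CPM, the usual depth-scaled read count, after TMM scaling, which corrects for library composition. The mesenchymal label fitted most of its markers, with exceptions. *Col1a1*, *Col1a2*, *Vim* and *Prrx1* were abundant in every library, but *Nt5e* never passed 0.355 CPM in polyA and *Thy1* ran from 0.246 to 154 CPM. The summed mesenchymal markers were 18085 to 19900 CPM in WT, 19642 to 20655 CPM in sg5 and 24461 to 27192 CPM in sg6 in polyA. Summed epithelial markers were low, at 2.76 to 5.03 CPM in WT, 0.890 to 1.71 CPM in sg5 and 0.355 to 0.723 CPM in sg6, and blood cell markers reached at most 1.3 CPM. The summed level of the 4 endothelial markers lay between 1.29 and 1.99 CPM in WT, between 9.43 and 14.2 CPM in sg5 and between 8.43 and 11 CPM in sg6, nearly all of it *Tek* (up to 13.8 CPM), while *Pecam1*, *Cdh5* and *Kdr* stayed at or below 0.445 CPM. The part of these marker levels in the results below was not tested.

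*Atrx* itself was checked first. In polyA libraries it was 276, 297 and 328 CPM in WT, 138, 114 and 129 CPM in sg5 and 122, 129 and 141 CPM in sg6. In rRNA-depleted libraries it was 213, 185 and 222 CPM in WT, 107, 58.4 and 71.0 CPM in sg5 and 96.6, 72.7 and 80.3 CPM in sg6. Every library of both clones lay below every WT library in both kinds. In the edgeR quasi-likelihood test, with Benjamini-Hochberg adjustment over all features of the kind, *Atrx* fell by 1.24 on the log2 scale in sg5 (adjusted p = 5.04e-05) and by 1.20 in sg6 (adjusted p = 5.15e-05) in polyA, and by 1.39 (adjusted p = 0.00138) and 1.31 (adjusted p = 0.00227) in rRNA-depleted RNA. The transcript was therefore reduced and still present in both clones. The paper reported loss of the ATRX protein in the KO lines by immunoblot and immunofluorescence, and transcript counts do not measure protein. Its KO clones were grown from single sorted cells. In bulk RNA, fewer cells with a transcript and less of it per cell cannot be told apart.

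In polyA libraries, *Smarca2* and *Ercc6* rose in both clones, by 1.42 to 1.62-fold. *Smarca5* passed the test as higher in sg5 (1.34-fold), *Smarca4* as slightly lower in sg5, and *Rad54b* as lower in sg6. In the other clone each moved in the same direction without passing (log2 fold change 0.22, -0.21 and -0.45). None of these genes differed between sg5 and sg6 in the edgeR test (adjusted p = 0.518, 0.919 and 0.515). A gene passed the test at an adjusted p below 0.05. That made 3 of the 10 genes higher in sg5, where 13.6% of all 15480 genes tested were higher, and 2 of 10 higher in sg6, where 16.1% of all were. It made 1 of 10 lower in sg5 against 13.4% of all genes, and 1 of 10 lower in sg6 against 14.6%. Under the threshold of the study, which also asks for a log2 fold change beyond 1, 0 of 10 genes were called in either clone and direction, where 3.18% of all genes were higher and 6.96% lower in sg5 and 3.64% higher and 7.54% lower in sg6. Without the fold threshold, DESeq2 called 4 higher and 1 lower in sg5, where it called 16.1% of all genes higher and 16.7% lower, and 2 higher and 3 lower in sg6, where it called 17.7% and 17.6%. The calls it added were *Chd1* in sg5 and *Rad54l2* and *Smarca4* in sg6. With all polyA libraries thinned to the total of the smallest, since sg5 had the deepest libraries, 2 genes were higher and 1 lower in each clone, *Smarca5* in sg5 no longer passing. Of all genes, 12.4% were then higher and 12.6% lower in sg5 and 14.9% and 14.2% in sg6. The median log2 fold change of the 10 genes was 0.11 in sg5 and -0.05 in sg6, and 5 of the 10 lay above 0 in each clone. The 95% interval stayed below a log2 fold change of 1 for 9 of the 10 genes in sg5, all but *Hells*, and for 10 of 10 in sg6.

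**Figure D1:**
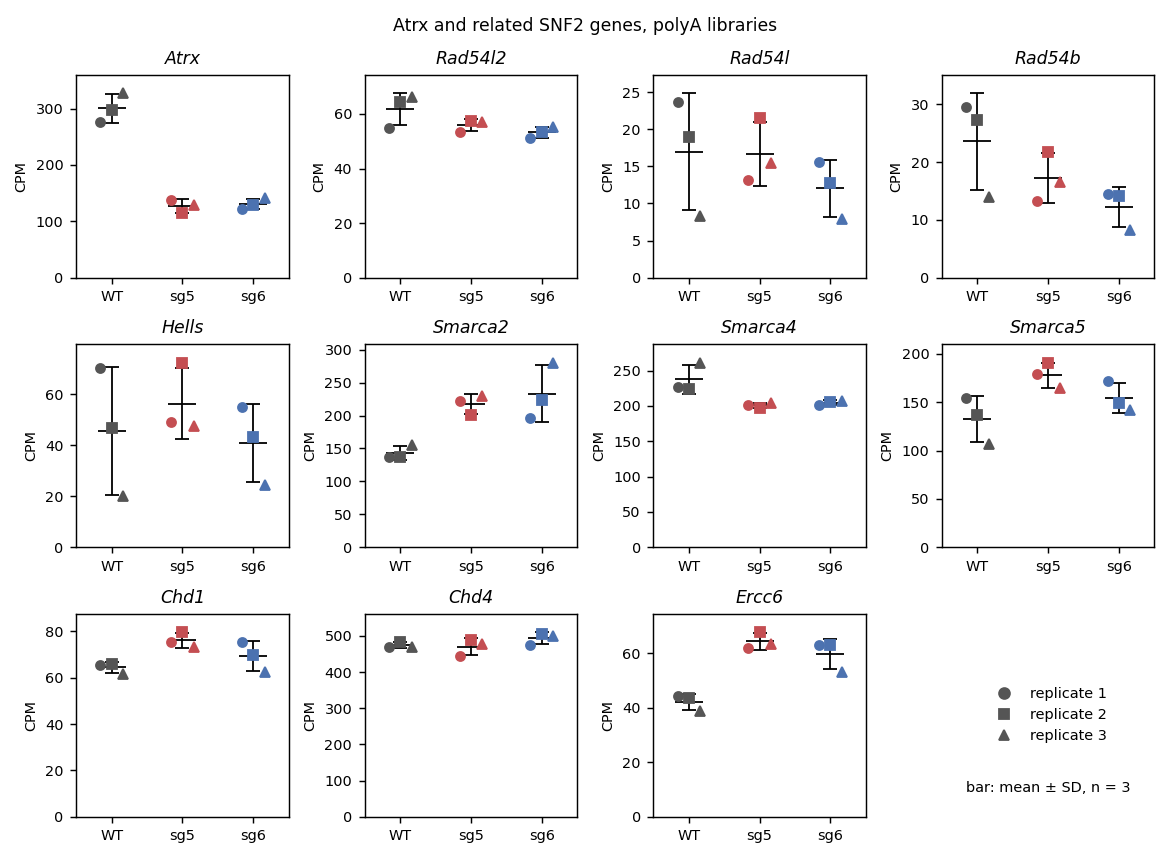
CPM of *Atrx* and the 10 related SNF2 genes in each polyA library (y axes, each starting at 0), with WT in grey, sg5 in red and sg6 in blue, the marker shape giving the replicate and bars giving mean ± SD of 3 libraries. *Smarca2* and *Ercc6* lie above WT in every library of both clones, and *Smarca4* lies below WT in every library of both.

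**Figure D2:**
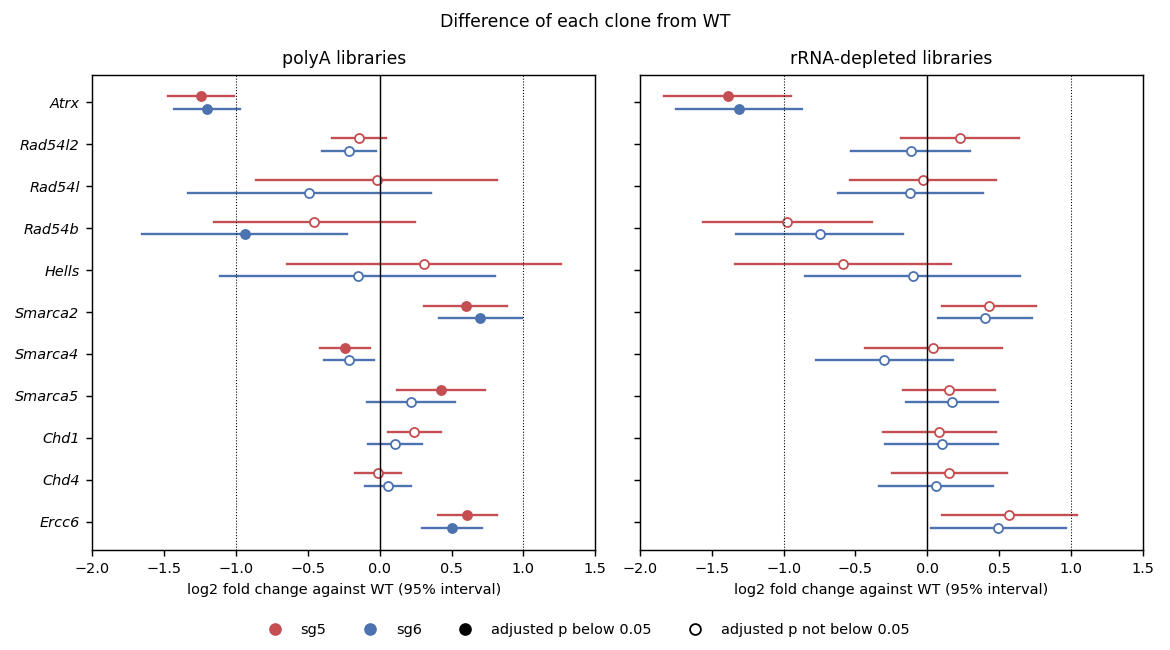
Log2 fold change against WT (x axes) with its 95% interval for each gene and clone, polyA on the left and rRNA-depleted on the right, filled where the adjusted p is below 0.05. *Atrx* lies beyond -1 in both clones and both kinds, and the points of the 10 related genes lie between -1 and 1.

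*Rad54l2*, the closest relative of *Atrx* (chr9:106688082-106789194, minus strand), did not pass the edgeR test in either clone, although other fits called it lower in sg6. Its polyA level was 55.0, 64.2 and 66.0 CPM in WT, 53.4, 57.5 and 57.0 CPM in sg5 and 51.2, 53.3 and 55.2 CPM in sg6. Clone and WT libraries overlapped, since WT replicate 1 was as low as the clones. The log2 fold change was -0.14 in sg5 (95% interval -0.33 to 0.05, adjusted p = 0.240) and -0.21 in sg6 (-0.40 to -0.03, adjusted p = 0.0828), a difference that passed in 1 of 9 fits without 1 library, that without WT replicate 1. The sg6 difference also passed with the replicate number as a block (-0.21, adjusted p = 0.0284), by DESeq2 (-0.23, adjusted p = 0.0366) and with the S phase covariate described below (-0.24, adjusted p = 0.0263). In rRNA-depleted libraries the levels were 16.6, 19.7 and 15.7 CPM in WT, 19.3, 25.5 and 16.1 CPM in sg5 and 14.2, 16.1 and 17.7 CPM in sg6, which overlapped throughout (adjusted p = 0.610 and 0.888). The intervals therefore left no room for a doubling of *Rad54l2* in either clone, and the polyA upper bounds were at or below 0.05 on the log2 scale.

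The recombination genes *Rad54l* and *Rad54b* lay on chromosome 4 and varied widely between libraries of 1 line. *Rad54l* (chr4:116094264-116123690, minus strand) was 23.7, 19.0 and 8.29 CPM in WT, 13.2, 21.5 and 15.5 CPM in sg5 and 15.5, 12.7 and 7.94 CPM in sg6 in polyA. The groups overlapped completely, and WT alone spanned nearly the whole range. Its log2 fold change was -0.02 (SE 0.37, adjusted p = 0.977) in sg5 and -0.49 (SE 0.38, adjusted p = 0.362) in sg6. In rRNA-depleted RNA it was 12.4, 14.7 and 10.6 CPM in WT, 8.61, 15.6 and 12.7 CPM in sg5 and 9.52, 14.2 and 11 CPM in sg6, again with overlap.

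*Rad54b* (chr4:11558922-11615805, plus strand) passed the test in 1 clone and 1 kind of library. In polyA it was 29.5, 27.3 and 14 CPM in WT, 13.3, 21.8 and 16.6 CPM in sg5 and 14.5, 14.1 and 8.26 CPM in sg6. WT replicate 3 fell within the range of both clones, and the other WT libraries lay above every clone library. The log2 fold change was -0.45 (SE 0.31, adjusted p = 0.319) in sg5 and -0.94 (SE 0.32, adjusted p = 0.0498) in sg6. Of the 9 fits that each left out 1 library, the call in sg6 passed in 1, the fit without WT replicate 3. In rRNA-depleted libraries, *Rad54b* was 26.1, 27.0 and 22.3 CPM in WT, 6.84, 16.7 and 14.9 CPM in sg5 and 13.2, 18.5 and 13.0 CPM in sg6. Here the clone libraries were all under the WT range. The difference from WT was -0.97 on the log2 scale in sg5 (SE 0.27, adjusted p = 0.0684) and -0.75 in sg6 (SE 0.27, adjusted p = 0.224), so that neither passed the edgeR test, while DESeq2 called the gene in sg5. The sg6 difference passed without sg5 replicate 1 (adjusted p = 0.0499). The gene overlaps *Fsbp* on the same strand, and 35.0% of its 31-base words occur in that gene, so its reads cannot be assigned with certainty.

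*Hells* (chr19:38930915-38971051, plus strand) did not pass in either clone. Its polyA level was 70.2, 46.7 and 20 CPM in WT, 49.0, 72.5 and 47.5 CPM in sg5 and 54.9, 43.4 and 24.5 CPM in sg6. Replicate 3 of WT and of sg6 were the lowest, and all groups overlapped. The log2 fold change was 0.31 (95% interval -0.65 to 1.26, adjusted p = 0.635) in sg5 and -0.15 (-1.11 to 0.80, adjusted p = 0.820) in sg6, intervals that include a doubling in sg5 and a halving in sg6. In rRNA-depleted RNA, *Hells* was 82.0, 97.3 and 59.8 CPM in WT, 25.2, 67.0 and 67.0 CPM in sg5 and 49.7, 110.4 and 62.4 CPM in sg6. The low value came from sg5 replicate 1, and the adjusted p was 0.434 in sg5 and 0.952 in sg6.

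The spread of *Hells*, *Rad54l* and *Rad54b* went with a list of 25 S phase and mitosis genes, which none of the 3 genes belongs to. The summed level of that list was 3587, 3070 and 1526 CPM in WT, 2321, 3502 and 2629 CPM in sg5 and 2725, 2361 and 1510 CPM in sg6 in polyA, and 3902, 4026 and 2979 CPM, 1424, 3202 and 2828 CPM, and 2456, 3886 and 2407 CPM in the same order in rRNA-depleted RNA. The polyA libraries with the lowest sums, WT replicate 3 and sg6 replicate 3, had the lowest *Hells*, and sg5 replicate 1 had the lowest sum and the lowest *Hells*, *Rad54l* and *Rad54b* among rRNA-depleted libraries. With this sum as a covariate, an alternative added after the data were seen, *Rad54l* did not pass in either clone and the *Rad54b* difference in polyA was -0.52 in sg5 (adjusted p = 0.00130) and -0.66 in sg6 (adjusted p = 0.000375). In that fit *Hells* was higher by 0.30 in sg5 (adjusted p = 0.0380) and by 0.29 in sg6 (adjusted p = 0.0445). The covariate itself was measured in the same libraries. The paper reported slower proliferation and fewer colonies in both KO lines than in WT. A fit with this sum can therefore take out or bring in a difference between clone and WT, and its part in these calls was not tested. It raised the share of all polyA genes called to 19.4% higher and 18.1% lower in sg5 and 22.8% higher and 21% lower in sg6. Of the 10 genes it then called 5 higher and 2 lower in sg5 and 4 higher and 3 lower in sg6.

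**Figure D3:**
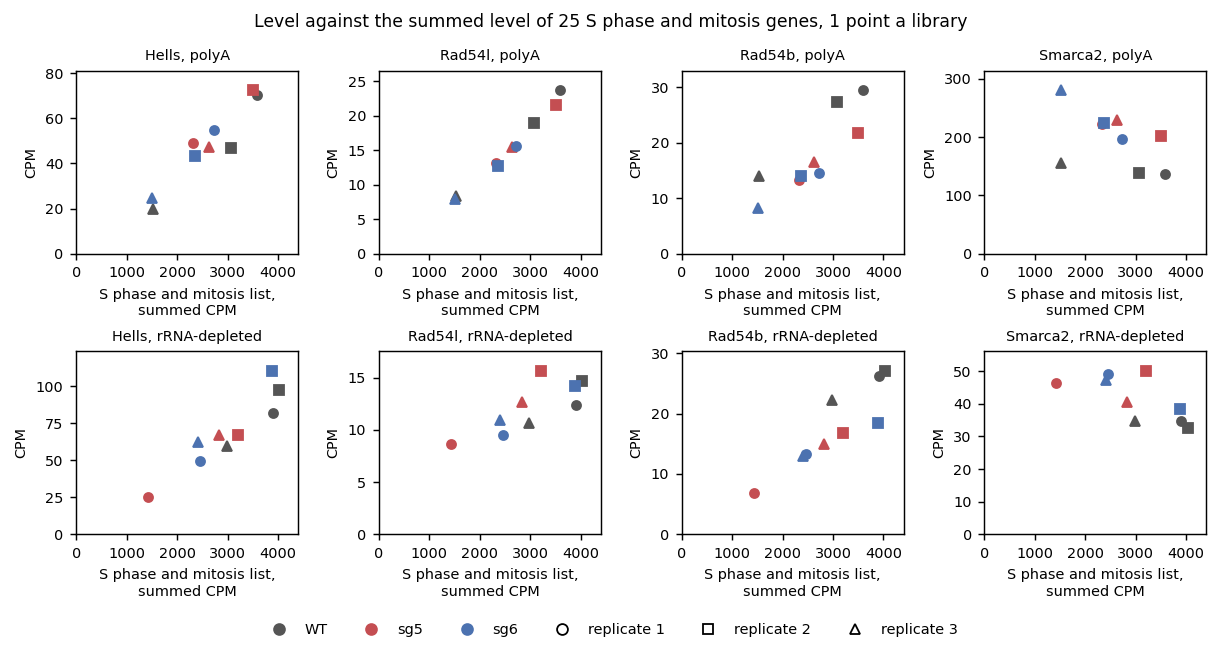
CPM of *Hells*, *Rad54l*, *Rad54b* and *Smarca2* (y axes) against the summed CPM of 25 S phase and mitosis genes (x axes), with 1 point for each library, polyA above and rRNA-depleted below. *Hells* and *Rad54l* are broadly higher where the sum is higher in all 3 lines, clone points of *Rad54b* lie mostly below WT points at a similar sum, and clone points of *Smarca2* lie above WT points.

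*Smarca2* (chr19:26605050-26778322, plus strand), the BRM motor of SWI/SNF, had the largest polyA increase of the 10 genes in sg6. It was 138, 138 and 156 CPM in WT, 223, 201 and 229 CPM in sg5 and 196, 224 and 280.5 CPM in sg6. Every library of both clones lay above every WT library. It rose by 1.51-fold in sg5 (log2 fold change 0.60, SE 0.13, adjusted p = 0.00851) and by 1.62-fold in sg6 (0.70, SE 0.13, adjusted p = 0.00334), and it passed in all 9 fits that left out 1 library in both clones. In rRNA-depleted RNA it was 34.7, 32.5 and 34.7 CPM in WT, 46.5, 50 and 40.5 CPM in sg5 and 49.1, 38.4 and 47.3 CPM in sg6, again with every clone library above WT. There the log2 fold change was 0.43 in sg5 (unadjusted p = 0.0140, adjusted p = 0.157) and 0.40 in sg6 (unadjusted p = 0.0191, adjusted p = 0.249), which did not pass. The antisense genes *4931403E22Rik* and *Gm20616* overlap *Smarca2*, and the strand setting of the counting is not given in the sources used here, so reads of the antisense genes cannot be told apart.

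*Smarca4* (chr9:21616169-21704230, plus strand), the BRG1 motor of the same complexes, was lower in the clones by a small amount. It was 227, 225 and 262 CPM in WT, 201, 197 and 205 CPM in sg5 and 201, 206 and 207 CPM in sg6 in polyA. All clone libraries lay below all WT libraries, with little spread within either clone. It fell by 0.24 on the log2 scale in sg5 (SE 0.08, adjusted p = 0.0448), and the difference in sg6 was -0.21 (SE 0.08, adjusted p = 0.0629). The sg6 difference passed with the replicate block (adjusted p = 0.0343), by DESeq2 (adjusted p = 0.0139), with at least 10 counts in every library (adjusted p = 0.0458) and with the S phase covariate (adjusted p = 0.00947). Of the 9 fits that left out 1 library, the sg5 call passed in 1, the fit without WT replicate 1 (adjusted p = 0.0384, against up to 0.136 in the others). In rRNA-depleted RNA the levels were 61.5, 65.1 and 53.2 CPM in WT, 46.1, 90.5 and 48.7 CPM in sg5 and 49.7, 49.6 and 46.6 CPM in sg6. sg5 replicate 2 was the highest of all and the other clone libraries were below WT, with an adjusted p of 0.955 in sg5 and 0.672 in sg6.

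*Smarca5* (chr8:80698507-80739497, minus strand), the ISWI motor, was 154, 137 and 107 CPM in WT, 179.7, 190.3 and 164 CPM in sg5 and 172, 149 and 142 CPM in sg6 in polyA. The sg5 libraries lay above all WT libraries and the sg6 libraries overlapped them. It rose by 0.43 on the log2 scale in sg5 (SE 0.13, adjusted p = 0.0433) and was 0.22 higher in sg6 (adjusted p = 0.255), and the sg5 call passed in 2 of the 9 fits that left out 1 library, those without WT replicate 1 and without sg6 replicate 1. In rRNA-depleted RNA it was 250.2, 242 and 200.3 CPM in WT, 232, 275 and 259.8 CPM in sg5 and 239, 304 and 238 CPM in sg6, with overlap (adjusted p = 0.684 and 0.732). Of its 31-base words, 33.3% also occur in other genes, mostly the locus *Gm13135*, so part of its reads is uncertain.

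The CHD motors did not pass the edgeR test in either clone. *Chd1* (chr17:15704967-15772610, plus strand) was 65.5, 66.1 and 61.8 CPM in WT, 75.4, 79.6 and 73.3 CPM in sg5 and 75.5, 69.9 and 62.6 CPM in sg6 in polyA. The sg5 libraries lay above WT, at a log2 fold change of 0.24 (95% interval 0.05 to 0.43, adjusted p = 0.0583), and sg6 overlapped WT (0.10, adjusted p = 0.375). The sg5 difference passed without sg6 replicate 3 (adjusted p = 0.0497), with the replicate block (adjusted p = 0.0219), by DESeq2 (adjusted p = 0.0472) and with the S phase covariate (adjusted p = 0.0197). *Chd4* (chr6:125095981-125130591, plus strand) was 470.3, 484 and 469 CPM in WT, 445, 488 and 478 CPM in sg5 and 474, 506 and 501 CPM in sg6. Its log2 fold change of -0.01 in sg5 (95% interval -0.17 to 0.15) and 0.06 in sg6 (-0.10 to 0.22) had the narrowest intervals of the 10 genes. In rRNA-depleted RNA neither gene passed. There *Chd1* ran from 48.9 to 75.3 CPM and *Chd4* from 131 to 217 CPM, the top of both ranges being sg5 replicate 2.

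*Ercc6* (chr14:32513521-32580990, plus strand), the repair factor CSB, was 44.3, 43.4 and 38.8 CPM in WT, 61.9, 67.7 and 63.3 CPM in sg5 and 62.8, 63.1 and 53.3 CPM in sg6 in polyA. Every clone library lay above every WT library. It rose by 1.53-fold in sg5 (log2 fold change 0.61, SE 0.09, adjusted p = 0.00137) and by 1.42-fold in sg6 (0.50, SE 0.09, adjusted p = 0.00313), and it passed in all 9 fits that left out 1 library in both clones. In rRNA-depleted RNA it was 33.5, 34.3 and 25.5 CPM in WT, 31.1, 57.8 and 49.7 CPM in sg5 and 37.2, 50.4 and 43.7 CPM in sg6. All sg6 libraries lay above WT, and sg5 replicate 1 lay within the WT range. The log2 fold change was 0.57 in sg5 (unadjusted p = 0.0208, adjusted p = 0.194) and 0.49 in sg6 (unadjusted p = 0.0404, adjusted p = 0.364). Without sg5 replicate 1, the sg5 difference passed (adjusted p = 0.0312).

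The median log2 fold change of the genes of a chromosome differed from that of all genes on several chromosomes that hold these genes, most on chromosomes 8 and 14. The median log2 fold change of the polyA genes of chromosome 8, which holds *Smarca5*, was 0.27 in sg5 and 0.28 in sg6 over 813 genes, and that of chromosome 14, which holds *Ercc6*, was 0.23 and 0.22 over 535 genes. The medians of chromosome 19 (*Smarca2* and *Hells*) were 0.07 and 0.08, and those of chromosome 9 (*Smarca4* and *Rad54l2*) were -0.09 and -0.10, whereas the median of all genes was -0.00 in sg5 and -0.01 in sg6. In rRNA-depleted RNA the medians were 0.37 and 0.27 for chromosome 8, 0.27 and 0.19 for chromosome 14 and 0.21 and 0.15 for chromosome 19. Over all genes they were 0.08 in sg5 and 0.04 in sg6 there. Fits centred on the median of each chromosome, an alternative added after the data were seen, put *Smarca2* at 0.52 in sg5 (adjusted p = 0.0206) and 0.62 in sg6 (adjusted p = 0.00787). They put *Ercc6* at 0.38 in sg5 (adjusted p = 0.0197) and at 0.28 in sg6, where it no longer passed (adjusted p = 0.0543). *Smarca5* was then at 0.16 in sg5 (adjusted p = 0.456) and -0.06 in sg6 (adjusted p = 0.790), *Smarca4* at -0.16 (adjusted p = 0.205) and -0.12 (adjusted p = 0.321), and *Rad54b* in sg6 at -0.88 (adjusted p = 0.0772). So of the calls only those of *Smarca2* in both clones and of *Ercc6* in sg5 held, against a share of all genes called of 8.2% higher and 10.6% lower in sg5 and 11.3% higher and 12.1% lower in sg6.

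In rRNA-depleted libraries 0 of the 10 genes passed in either clone. Of all 56086 genes and TE loci tested, 1.82% were higher and 2.06% lower in sg5, and 1.18% higher and 1.72% lower in sg6. Most of these features were TE loci. Among the 13303 genes, 5.64% were higher and 5.1% lower in sg5, and 3.55% higher and 4.03% lower in sg6. At an unadjusted p below 0.05, 2 of the 10 genes were higher (*Smarca2* and *Ercc6*) and 1 lower (*Rad54b*) in each clone, where 19.5% of all genes were higher and 12.9% lower in sg5, and 13.4% higher and 10.9% lower in sg6. DESeq2 called 0 higher and 1 lower in sg5 (*Rad54b*), against 8.09% and 5.36% of all genes, and 0 in either direction in sg6, against 4.86% and 4.63%. With the fold threshold, 0 of 10 were called, against 1.19% of all features higher and 1.86% lower in sg5 and 0.84% higher and 1.61% lower in sg6. Under the S phase covariate, *Ercc6* passed in both clones (0.96, adjusted p = 0.00177, and 0.73, adjusted p = 0.00526) and *Rad54b* did not (-0.47, adjusted p = 0.150, and -0.44, adjusted p = 0.133), while 2.17% of features were higher and 2.11% lower in sg5 and 2.12% higher and 2.39% lower in sg6. For the fold threshold and the covariate, shares over genes alone were not counted. The median over the 10 genes was 0.12 in sg5 and -0.02 in sg6, beside 0.08 and 0.04 over all genes tested.

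Counted by library, without a test, 4 genes had every sg5 polyA library above every WT library (*Smarca2*, *Smarca5*, *Chd1* and *Ercc6*) and 1 had every library below (*Smarca4*), where 21.2% and 20.3% of all genes did so. In sg6, 2 lay above (*Smarca2* and *Ercc6*) and 1 below (*Smarca4*), against 22.4% and 20%. In rRNA-depleted RNA, 1 lay above (*Smarca2*) and 1 below (*Rad54b*) in sg5, against 10.5% and 12.6% of all features, and 2 lay above (*Smarca2* and *Ercc6*) and 2 below (*Rad54b* and *Smarca4*) in sg6, against 8.74% and 10.6%. These rRNA-depleted shares are over features that were mostly TE loci, and shares over genes alone were not counted.

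**Figure D4:**
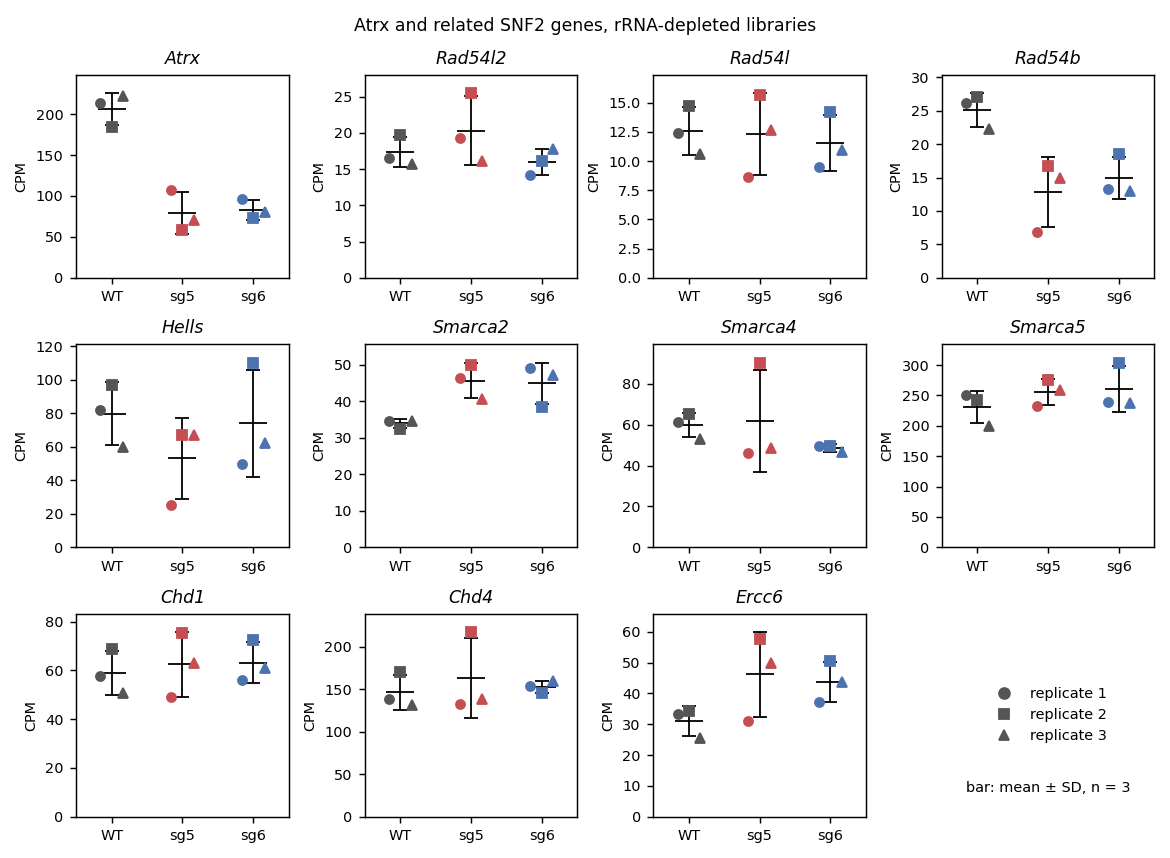
CPM of *Atrx* and the 10 related SNF2 genes in each rRNA-depleted library (y axes, each starting at 0), with WT in grey, sg5 in red and sg6 in blue, the marker shape giving the replicate and bars giving mean ± SD of 3 libraries. *Smarca2* lies above WT and *Rad54b* below WT in every clone library, and sg5 replicates 1 and 2 lie far apart for *Hells* and *Smarca4*.

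The clones were then compared with each other. Between sg5 and sg6, 0 of the 10 genes differed in polyA, where 4.79% of all genes did, and 0 differed in rRNA-depleted RNA, where 0.49% of features did. The number was also 0 at an unadjusted p below 0.05, where 17% of all genes differed in polyA and 13.5% in rRNA-depleted RNA, and 0 by DESeq2, where 9.3% and 2.41% did. The gap between *Smarca5* in sg5 and sg6 was 0.21 on the log2 scale in polyA (95% interval -0.10 to 0.51, adjusted p = 0.518), so the call in sg5 alone does not show that the clones differed. Whether a clone effect depended on the kind of library was tested in 1 fit of all 18 libraries over 14945 genes. For 0 of the 10 genes did the effect in polyA differ from that in rRNA-depleted RNA, in either clone, also at an unadjusted p below 0.05, with a lowest adjusted p of 0.614 in sg5 and 1 in sg6. Of all genes, 0.435% differed in sg5 and 0.161% in sg6, and 9.6% and 4.22% at an unadjusted p. Kind of RNA, sequencing centre and counting method differed together between these libraries and cannot be told apart.

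Levels per kilobase of exon ordered the genes in WT. In polyA, *Chd4* was the most abundant at 59.2 ± 1.06 CPM per kb (SD, n = 3), followed by *Smarca4* at 36.7 ± 3.20, *Smarca5* at 17.0 ± 3.07, *Smarca2* at 10.1 ± 0.73 and *Chd1* at 7.39 ± 0.27 CPM per kb. The ranges of these 5 did not overlap between neighbours, and from *Chd1* down each overlapped the next. *Hells* followed at 6.33 ± 3.48, *Rad54l2* at 5.22 ± 0.50, *Rad54b* at 4.08 ± 1.45, *Ercc6* at 3.28 ± 0.23 and *Rad54l* at 2.21 ± 1.02 CPM per kb. In rRNA-depleted RNA, which was scaled separately, *Smarca5* came first at 29.7 ± 3.44 CPM per kb, ahead of *Chd4* at 18.3 ± 2.56, *Hells* at 11.1 ± 2.61 and *Smarca4* at 9.25 ± 0.94. *Chd1* (6.76 ± 1.04), *Rad54b* (4.35 ± 0.44), *Ercc6* (2.42 ± 0.38), *Smarca2* (2.38 ± 0.09), *Rad54l* (1.63 ± 0.26) and *Rad54l2* (1.47 ± 0.18) came after. There the neighbours *Hells* and *Smarca4*, *Ercc6* and *Smarca2*, and *Rad54l* and *Rad54l2* overlapped. With the length of the longest transcript in place of all merged exons, the mean levels of 4 genes were over 1.5 times higher and the order changed. *Smarca2* was then 24.3 CPM per kb in polyA, above *Smarca5* at 21.7, and 5.74 in rRNA-depleted RNA, and *Rad54b* was 8.22 and 8.76, above *Chd1* at 8.14 and 7.45. *Rad54l* was then 3.72 and 2.75 and *Ercc6* 5.01 and 3.69 CPM per kb. *Smarca2* was below *Smarca4* in WT in both kinds with either length, the latter being 37.3 and 9.4 CPM per kb with the longest transcript.

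**Figure D5:**
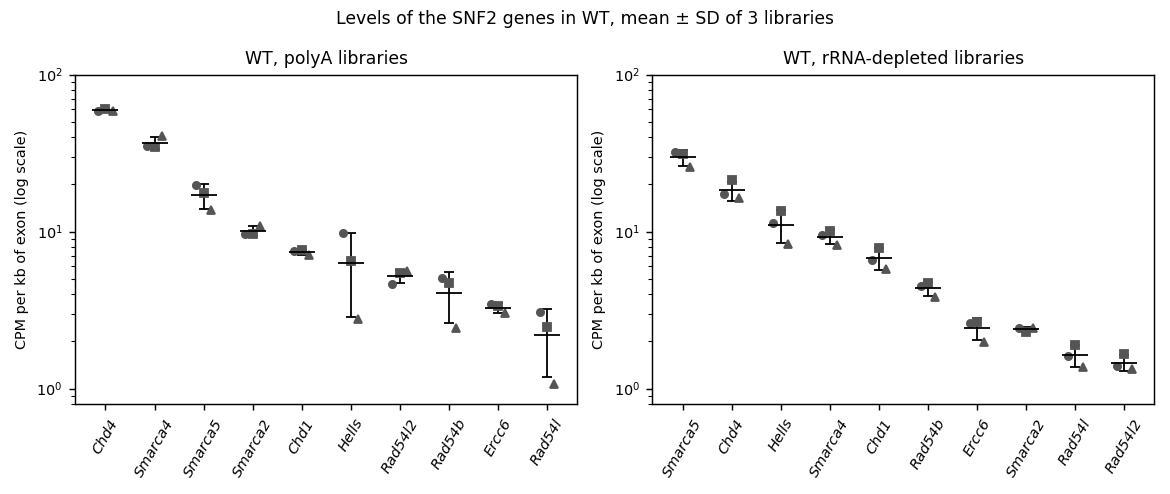
WT level of each of the 10 genes in CPM per kb of exon (y axes, log scale), polyA on the left and rRNA-depleted on the right, each ordered by its mean, with 3 libraries as points and bars giving mean ± SD. *Chd4* leads in polyA and *Smarca5* in rRNA-depleted RNA.

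The partners of these motors were examined in lists, each counted in polyA where both clones passed in the same direction. Over all genes, 1631 of 15480 (10.5%) were higher and 1501 (9.7%) lower in both clones, 12.3% and 12.1% by DESeq2, and 15.3% and 14% at an unadjusted p below 0.05. For the chromosome-centred and covariate fits and those without 1 library, the share of all genes that passed in both clones was not counted. Of 21 other SNF2 family ATPases, *Chd9* was higher and *Smarca1*, *Chd7* and *Chd5* were lower. *Smarca1* (SNF2L), the ISWI paralog of *Smarca5*, was 1.54, 2.39 and 2.62 CPM in WT, 0.0126, 0.0349 and 0.0247 CPM in sg5 and 0.207, 0.161 and 0.213 CPM in sg6. The counts behind these values ran from 44 to 209 a library in WT, but only from 2 to 8 in sg5 and from 10 to 14 in sg6, with adjusted p = 5.18e-06 and 5.43e-05, and the gene was too low to be tested in rRNA-depleted RNA. *Chd7*, the CHARGE syndrome remodeler, was 5.38, 4.71 and 4.25 CPM in WT, 2.01, 1.86 and 1.56 CPM in sg5 and 1.01, 1.37 and 1.37 CPM in sg6 (log2 fold change -1.40 and -1.94, adjusted p = 0.000629 and 0.000114). Both were low next to the 10 genes, and every clone library lay below WT. *Chd5*, a neuronal NuRD-type motor, fell by 1.61 (adjusted p = 0.00736) and 1.02 (adjusted p = 0.0453) on the log2 scale, and *Chd9* rose by 0.44 (adjusted p = 0.0124) and 0.39 (adjusted p = 0.0175). The median of this list was 0.02 in sg5 and -0.02 in sg6. With the chromosome-centred fits, 2 of the list passed in both clones (*Smarca1* and *Chd7*).

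Of 25 SWI/SNF subunits, 23 were tested, and 3 were higher in both clones (*Ss18*, *Brd7* and *Arid1b*) and 4 lower (*Bcl7a*, *Smarce1*, *Smarcc1* and *Smarcd2*). *Ss18*, a subunit of the canonical and non-canonical complexes, was 104, 100.1 and 96.3 CPM in WT, 167, 156 and 147 CPM in sg5 and 155, 141 and 142 CPM in sg6. It rose by 0.65 (adjusted p = 0.000369) and 0.55 (adjusted p = 0.000801). *Brd7*, of the PBAF form, rose by 0.44 (adjusted p = 0.000910) and 0.33 (adjusted p = 0.00382), *Smarce1* (BAF57) fell by 0.44 (adjusted p = 0.00827) and 0.43 (adjusted p = 0.00747), and *Bcl7a* fell by 0.60 (adjusted p = 0.0423) and 0.79 (adjusted p = 0.0130). The median of the list was -0.11 in sg5 and -0.01 in sg6. Centred on chromosome medians, 1 SWI/SNF subunit passed in both clones (*Arid1b*). The count of 7 came down to 3 without WT replicate 2 and to 4 without WT replicate 3, sg5 replicate 2, sg5 replicate 3 or sg6 replicate 2, and *Ss18*, *Brd7* and *Smarce1* passed in all of these fits.

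The ISWI partners held *Baz1a* (ACF1), the subunit that pairs with *Smarca5*, which rose by 0.98 (adjusted p = 0.00624) and 0.97 (adjusted p = 0.00557), from 42.2, 31 and 23.1 CPM in WT to 64.2, 68.3 and 56.8 CPM in sg5 and 70.9, 62.3 and 54.5 CPM in sg6. *Bptf*, of the NURF complex, fell by 0.35 (adjusted p = 0.00681) and 0.33 (adjusted p = 0.00782). These were the 2 of 8 tested that passed in both clones, and 0 did with chromosome-centred fits. Without WT replicate 3, 4 ISWI partners passed, *Baz2b* and *Pole3* joining the others. Of 12 NuRD subunits, 3 were higher and 0 lower in both clones. *Mbd2*, which reads methylated DNA, rose by 0.66 (adjusted p = 0.00278) and 0.65 (adjusted p = 0.00243), *Gatad2a* by 0.58 (adjusted p = 0.00659) and 0.65 (adjusted p = 0.00313), and *Mta3* by 0.34 (adjusted p = 0.0110) and 0.43 (adjusted p = 0.00273). With chromosome-centred fits, 1 NuRD gene passed in both clones (*Mta3*).

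Of 12 homologous recombination partners of RAD54, *Xrcc3* rose by 0.27 (adjusted p = 0.0458) and 0.34 (adjusted p = 0.0171), and *Rad51d* fell by 0.49 (adjusted p = 0.0127) and 0.40 (adjusted p = 0.0279). Both act in recombination repair. This count of 2 was 0 without WT replicate 2, sg6 replicate 1 or sg6 replicate 2, 1 without WT replicate 3, sg5 replicate 2, sg5 replicate 3 or sg6 replicate 3, and 0 with chromosome-centred fits. Of 11 partners of ERCC6 in transcription-coupled repair, *Ercc3* (the XPB helicase of TFIIH) rose by 0.50 (adjusted p = 0.00188) and 0.59 (adjusted p = 0.000649), and the list count was 0 with chromosome-centred fits and 3 without WT replicate 1. Of 8 partners of HELLS and maintenance methylation genes, 0 passed in both clones, also at an unadjusted p below 0.05 and by DESeq2. Of the 25 S phase and mitosis genes, 0 passed in both clones by edgeR, 0 at an unadjusted p below 0.05 and 0 by DESeq2. With their own sum as covariate 5 did, but that fit adjusts these genes for themselves, so no conclusion about them is drawn from it. In rRNA-depleted RNA, 0 genes of any of the 8 lists passed in both clones by edgeR, where 2.31% of all genes were higher and 2.89% lower in both, and 0 by DESeq2, where 3.22% were higher and 3.22% lower. Of the list genes named above, *Ss18* was higher in sg5 there (0.81, adjusted p = 0.00661). *Smarce1* (-0.55, adjusted p = 0.0269), *Chd7* (-1.59, adjusted p = 0.0266) and *Chd5* (-2.82, adjusted p = 0.00283) were lower, as in polyA. Of all genes, 5.64% were higher and 5.1% lower in sg5. In sg6, 0 list genes passed by edgeR, against 3.55% higher and 4.03% lower of all genes. At an unadjusted p below 0.05, 9.76% of all genes were higher and 7.2% lower in both clones there. In the recombination list, chosen for mention after its values were seen, 0 of 12 were higher and 5 lower by that measure, at a list median of -0.62 in sg5 and -0.40 in sg6. The median of the S phase and mitosis list was also below 0 in these libraries, at -0.39 and -0.22, and its part in the recombination values was not tested.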

How the data were processed

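RNA was measured in 18 libraries of C3H/10T1/2 cells: 3 WT, 3 sg5 and 3 sg6 libraries of polyA RNA and the same of rRNA-depleted RNA. For polyA RNA, the authors deposited expected counts per gene, made with Rfastp, Salmon and tximport on mm10 UCSC known genes, which were whole numbers as deposited. For rRNA-depleted RNA, the authors deposited counts per gene and per TE locus, made with STAR and TElocal on mm10. The submitters' processing notes give Salmon 0.8.2, STAR 2.27.10a and DESeq2. The strand setting of either counting is not given in the sources used here. All deposited per-sample columns were used, and 24045 of 24100 genes were matched to a symbol by Entrez identifier.

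Features were filtered with filterByExpr (minimum count 10, minimum total 15), scaled by TMM and tested with the quasi-likelihood test of edgeR 4.0.16 (R 4.3.3, limma 3.58.1), in 1 fit of the 9 libraries of a kind with group as the only term. P-values are two-sided and were adjusted by Benjamini-Hochberg over the 15480 polyA genes or the 56086 rRNA-depleted features tested, of which 13303 were genes. A gene passed at an adjusted p below 0.05, and intervals are at 95%. Each clone was compared with WT and with the other clone, and a fit of all 18 libraries tested the difference between the kinds. The genes and lists were chosen with earlier results of these data known. Named were the 10 genes, *Atrx* and, from each list, up to 4 genes that passed in the same direction in both clones in polyA, ranked by the smaller absolute log2 fold change. Other genes named in counts were chosen after their values were seen. Alternatives were the fold threshold of the study, a replicate block, median-of-ratios scaling, DESeq2 1.42.0, other filters, counts thinned to the smallest library, the 2 groups compared alone, rRNA-depleted genes without TE loci, the longest transcript as length and leaving out each library. Centring on chromosome medians and the S phase sum as a covariate were added after the data were seen. The scripts were tested on simulated counts. Of 50 genes changed 1.5-fold, the test found 21 in sg5 and 24 in sg6 in polyA, and 2 and 3 in rRNA-depleted RNA. Of 50 genes changed 2-fold, it found 44 and 45 in polyA, and 21 and 22 in rRNA-depleted RNA. This check used 15270 polyA features and 49592 rRNA-depleted features. Its 95% intervals covered the set value in 96.5% of cases in sg5 and 95% in sg6 in polyA. In rRNA-depleted RNA they did so in 96% and 91%. Whether the same shares hold for the measured libraries was not tested. Library depth differed between groups, sg5 being deepest in polyA. Promoter sequences came from RefSeq (GRCm38.p6). Plots were made in Python 3.11.15 (matplotlib 3.10.9).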

Additional observations from a re-analysis of the deposited data

How the results depend on the processing

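In the count of the 10 genes in polyA, 3 were higher and 1 lower in sg5, 2 higher and 1 lower in sg6, and 2 higher and 0 lower in both clones. With a log2 fold change beyond 1, every one of these counts was 0. With the S phase sum as a covariate, 5 were higher and 2 lower in sg5, 4 higher and 3 lower in sg6, and 4 higher and 2 lower in both. Centred on chromosome medians, 0 were lower in either clone and 1 was higher in sg6 and in both. The count lower in sg5 was 0 with no filter on low counts and with only the 2 groups compared, and 0 to 1 when 1 library was left out (it stayed at 1 only without WT replicate 1). The count lower in sg6 was 0 with only the 2 groups compared, 2 with at least 10 counts in every library, 3 by DESeq2 and 3 with the replicate block, and 0 to 1 when 1 library was left out (1 without WT replicate 1 and without WT replicate 3). The count lower in both clones was 1 with the replicate block, by DESeq2 and with at least 10 counts in every library. In rRNA-depleted RNA these counts were 0. They became 1 lower in sg5 with the replicate block, with no filter, with at least 10 counts in every library, by DESeq2 and with genes alone, 1 lower in sg6 with only the 2 groups compared, 1 higher in sg5 and 1 lower in sg6 without sg5 replicate 1 (0 to 1 over the libraries left out), and 1 higher in each clone and in both with the covariate. Between sg5 and sg6 the count was 0 throughout. The share of all genes called is not given for the other filters, the 2 groups compared alone and the fits without 1 library. Nor is it given for the replicate block and genes alone in rRNA-depleted RNA. Whether these counts moved with the share of all genes called was not tested.

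The counts of list genes that passed in both clones in polyA moved as follows. With the fold threshold, 0 SWI/SNF, ISWI, NuRD, recombination and ERCC6 partner genes passed. Centred on chromosome medians, 2 other SNF2 ATPases, 1 SWI/SNF, 1 NuRD and 0 ISWI, recombination and ERCC6 partner genes passed. With the covariate, 7 other SNF2 ATPases, 5 recombination, 3 ERCC6 partner, 2 HELLS partner and 5 S phase genes passed. With the replicate block, 8 other SNF2 ATPases, 3 ERCC6 partners and 1 S phase gene passed, and by DESeq2 2 ERCC6 partners. With only the 2 groups compared, 4 SWI/SNF and 1 recombination gene passed, and 1 recombination gene passed with no filter, with at least 10 counts in every library and with thinned counts. Leaving out 1 library took SWI/SNF as low as 3, recombination as low as 0, ISWI as high as 4 and ERCC6 partners as high as 3. In rRNA-depleted RNA all list counts were 0. With genes alone they became 2 for SWI/SNF, 1 for NuRD and 1 for recombination. With the replicate block they became 1 for SWI/SNF, 2 for recombination and 1 for ERCC6 partners, and with the covariate 1 each for SWI/SNF, ISWI, NuRD, recombination and ERCC6 partners and 2 for S phase genes. With no filter they became 1 for other SNF2 ATPases, recombination and S phase genes. SWI/SNF was 1 with at least 10 counts in every library and with thinned counts, and recombination was 1 with only the 2 groups compared and at most 1 without 1 library. The share of all genes that passed in both clones was counted only for the fit reported above and for DESeq2. In single clones the polyA covariate fit called 19.4% of all genes higher and 18.1% lower in sg5, and 22.8% and 21% in sg6. Whether the list counts moved with such shares was not tested. The S phase counts under the covariate rest on the genes that make up the covariate.

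Of 550 log2 fold changes of the 10 genes and *Atrx* under the alternatives, 475 kept their direction and side of the threshold, 20 no longer passed, 23 newly passed and 32 turned direction. Of the 9 fits without 1 library, only those with the lowest and highest log2 fold change entered this tally. It therefore leaves out most calls lost in such fits. In polyA, the calls of *Smarca4* and *Smarca5* in sg5 and of *Rad54b* in sg6 passed in only 1, 2 and 1 of the 9. The polyA values that turned direction in sg5 were *Rad54l* at 0.095 with the replicate block and 0.011 centred, and *Chd4* at 0.0021 with no filter and 0.093 centred. In sg6 they were *Hells* at 0.29 with the covariate and *Smarca5* at -0.060 centred. Without 1 library, the polyA values of *Rad54l* in sg5 ranged from -0.35 to 0.29, of *Hells* in sg5 from -0.048 to 0.75, of *Chd4* in sg5 from -0.037 to 0.022 and of *Hells* in sg6 from -0.51 to 0.29. The rRNA-depleted values that turned direction in sg5 were *Rad54l* at 0.012 with median-of-ratios scaling and by DESeq2, 0.0062 with no filter and 0.37 with the covariate, *Hells* at 0.14 with the covariate, *Smarca5* at -0.22 centred, and *Smarca4* at -0.0038 with the replicate block, -0.026 with at least 10 counts in every library and -0.037 with genes alone. In sg6 they were *Rad54l2* at 0.00022 centred, *Rad54l* at 0.11 and *Hells* at 0.30 with the covariate, and *Smarca5* at -0.093 centred. Without 1 library, the rRNA-depleted values in sg5 ranged from -0.19 to 0.20 for *Rad54l*, from -0.29 to 0.25 for *Smarca4*, from -0.030 to 0.26 for *Chd1* and from -0.061 to 0.31 for *Chd4*, and those in sg6 from -0.19 to 0.020 for *Rad54l2*, from -0.26 to 0.044 for *Rad54l*, from -0.48 to 0.14 for *Hells*, from -0.0085 to 0.26 for *Chd1* and from -0.021 to 0.21 for *Chd4*. None of these differences had passed in the fit reported above. The cause of these changes was not tested.

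The labels do not say that a replicate number marks a shared day or batch. Deviations from the group means correlated at 0.260 on average between same-numbered polyA libraries (0.0257 to 0.430) and at 0.294 between same-numbered rRNA-depleted libraries (-0.229 to 0.638). Between differently numbered libraries the mean was -0.127 in polyA and -0.145 in rRNA-depleted RNA. Deviations from a group mean cancel out within the group, so this mean is tied to the same-numbered mean with opposite sign. It is not a separate observation. In polyA 9 of 9 libraries correlated best with a library of their own number, a hint from the data, and in rRNA-depleted RNA 6 of 9 did. The labels give no shared source, so the numbers were not taken as pairs. The correlations do not exclude pairing, above all in polyA, where no same-numbered pair was negative. With the replicate block the share of all polyA genes called was 19.4% higher and 17.9% lower in sg5 and 21.2% and 18.9% in sg6.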
